A study of Mus musculus with 6 samples.

Results

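Genes of the hypoxia-inducible factor (HIF) pathway were followed through 6 samples of preBötzinger complex (preBötC) neurons, the brainstem site that generates the inspiratory rhythm. The 10 members were chosen by name from textbook roles, with earlier results of these data known. The authors had already reported a difference in Hif1a. The members included the alpha subunits Hif1a, Epas1 and Hif3a, the beta subunits Arnt and Arnt2, and the prolyl hydroxylases Egln1, Egln2 and Egln3. The ubiquitin ligase receptor Vhl and the asparaginyl hydroxylase Hif1an completed the list. All 10 were among the 49568 gene names listed per sample, 9 had a value above 0 in at least 1 sample, and the same 9 entered the test of 17614 genes.

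Each sample held 15 neurons drawn by micropipette from medullary slices of postnatal day 2 mice, and each came from a different mouse, 6 mice in all. Both groups came from Dbx1CreERT2; Rosa26tdTomato offspring exposed to tamoxifen before birth, so both carried the same driver and reporter alleles. The 3 Dbx1 samples held neurons with tdTomato fluorescence, which marks descendants of progenitors that expressed Dbx1, and the 3 non-Dbx1 samples held neighbouring somata without it. A cell of Dbx1 origin that had not recombined would therefore fall among the non-Dbx1 neurons, and the slices were kept in oxygenated saline during collection.

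In oxygen, the prolyl hydroxylases mark HIF alpha subunits for capture by the VHL protein and for destruction by its ubiquitin ligase, while the asparaginyl hydroxylase blocks their contact with coactivators. When oxygen falls, the alpha subunit survives, pairs with an ARNT protein and binds the core letters ACGTG or GCGTG of hypoxia response elements. Most of this control acts on the protein, so that transcript levels give the supply of each component and not the activity of the pathway. In the respiratory system the pathway is best known from glomus cells of the carotid body, and the preBötC itself changes its rhythm in hypoxia.

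Levels are RPKM, reads on a gene scaled by its exon length and by all reads on genes, and reads on genes ranged from 6464675 to 9432958 per sample. Neuronal markers were present in all 6 libraries, with summed RPKM of 8 markers from 1434 to 2244 in the Dbx1 samples and from 1373 to 1867 in the non-Dbx1 samples. Non-Dbx1 replicate 1 stood apart in its erythroid markers, whose 5 genes summed to 14058, and in its oligodendrocyte markers, whose 8 genes summed to 439 against 30.8 to 75.1 in the Dbx1 samples. Of these 8 oligodendrocyte genes, 7 were lower in Dbx1 samples. A limma p under 0.05 was reached by 2 of them, beside 2.48% of all tested genes. Groups without overlap were found for 2, beside 5.24%. Their sums in non-Dbx1 replicates 2 and 3, 68.9 and 72.7, lay within the Dbx1 range. The erythroid sum separated the groups, with 1198 and 733 in non-Dbx1 replicates 2 and 3 and 90.3 to 507 in the Dbx1 samples. Of its 5 genes, 4 had a limma p under 0.05 with lower values in Dbx1 samples, beside 2.48% of all tested genes. The part of the oligodendrocyte and the erythroid markers in the differences below was not tested. Non-Dbx1 replicate 2 stood apart in its endothelial markers, whose 10 genes summed to 115 against 1.81 to 6.47 in the other 5 samples. Summed markers of pericytes, of astrocytes and of microglia overlapped between the groups. The astrocyte sums of 238 to 282 were mostly Aldoc, with 199 to 239 RPKM. Of the 8 astrocyte markers, 6 were lower and 2 were higher in Dbx1 samples. With 15 neurons in a sample, fewer cells that express a gene and less RNA in each of them cannot be told apart. L2FC denotes the difference of mean log2(RPKM + 1), Dbx1 minus non-Dbx1, so that positive values are higher in Dbx1 neurons.

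The promoters of 3 members are shown because they span the range of levels measured. Hif1a had the largest L2FC of the members, Egln2 had the highest mean level, and Egln3 was listed at 0 in all 6 samples. Each window holds 250 bases before and 50 bases after the RefSeq start on GRCm38.p6, printed along the strand of the gene. Capitals mark ACGTG or GCGTG on either strand, which appear as CACGT and CACGC where the core lies on the opposite strand, and a CACGTG palindrome counts as 2 because it holds ACGTG on both.
Hif1a, chr12:73907617-73907916, plus strand: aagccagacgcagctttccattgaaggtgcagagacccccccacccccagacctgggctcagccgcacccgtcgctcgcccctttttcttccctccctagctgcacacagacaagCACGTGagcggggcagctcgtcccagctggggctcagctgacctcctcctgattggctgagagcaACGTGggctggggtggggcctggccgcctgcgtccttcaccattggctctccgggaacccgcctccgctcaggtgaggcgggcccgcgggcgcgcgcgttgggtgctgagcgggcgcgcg
Egln2, chr7:27166753-27167052, minus strand: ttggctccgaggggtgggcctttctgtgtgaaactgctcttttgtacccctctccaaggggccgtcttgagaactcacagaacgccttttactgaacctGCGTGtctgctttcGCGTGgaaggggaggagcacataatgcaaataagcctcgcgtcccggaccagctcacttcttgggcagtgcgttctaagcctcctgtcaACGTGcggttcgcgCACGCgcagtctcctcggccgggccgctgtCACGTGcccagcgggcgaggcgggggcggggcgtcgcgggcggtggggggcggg
Egln3, chr12:54203825-54204124, minus strand: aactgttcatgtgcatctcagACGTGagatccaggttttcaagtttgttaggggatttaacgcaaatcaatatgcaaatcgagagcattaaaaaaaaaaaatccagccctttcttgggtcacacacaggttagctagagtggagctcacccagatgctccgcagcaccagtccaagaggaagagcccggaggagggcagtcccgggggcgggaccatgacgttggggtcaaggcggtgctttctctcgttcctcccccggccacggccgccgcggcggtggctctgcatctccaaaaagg

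The Hif1a window held 3 matches to ACGTG and none to GCGTG, and the Egln2 window shown held 3 matches to each. RefSeq gave Egln2 a second window, chr7:27165679-27165978, with no match to ACGTG and 1 to GCGTG. The Egln3 window held 1 match to ACGTG. RefSeq gave a window for 9 of the 10 members, and 6 of these 9 members had a match to either core. Counted by window, 7 of 10 had a match, beside 43.8% of 32851 promoters of the same length. ACGTG was found in 19.6% of all promoters and GCGTG in 32.4%, with promoters that hold both counted in each share. A match describes the letters only, and these letters were chosen because the HIF proteins bind them.

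Among the 9 tested members, Hif1a was higher and Epas1 lower in every Dbx1 sample than in every non-Dbx1 sample, and the groups overlapped for the other 7. For these 2 alpha subunits the limma p was under 0.05, which 2.73% of all tested genes reached with higher and 2.48% with lower values in Dbx1 samples. Groups without overlap were found for 5.35% of all tested genes with Dbx1 higher and for 5.24% with Dbx1 lower. None of the 9 had an FDR under 0.1 in limma, a threshold that 0.00568% of tested genes passed, namely the non-coding gene D930028M14Rik with an L2FC of −5.75. No test of the members as a list was made. The median L2FC was −0.14 over the 9 members and 0.01 over all tested genes.

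**Figure D1:**
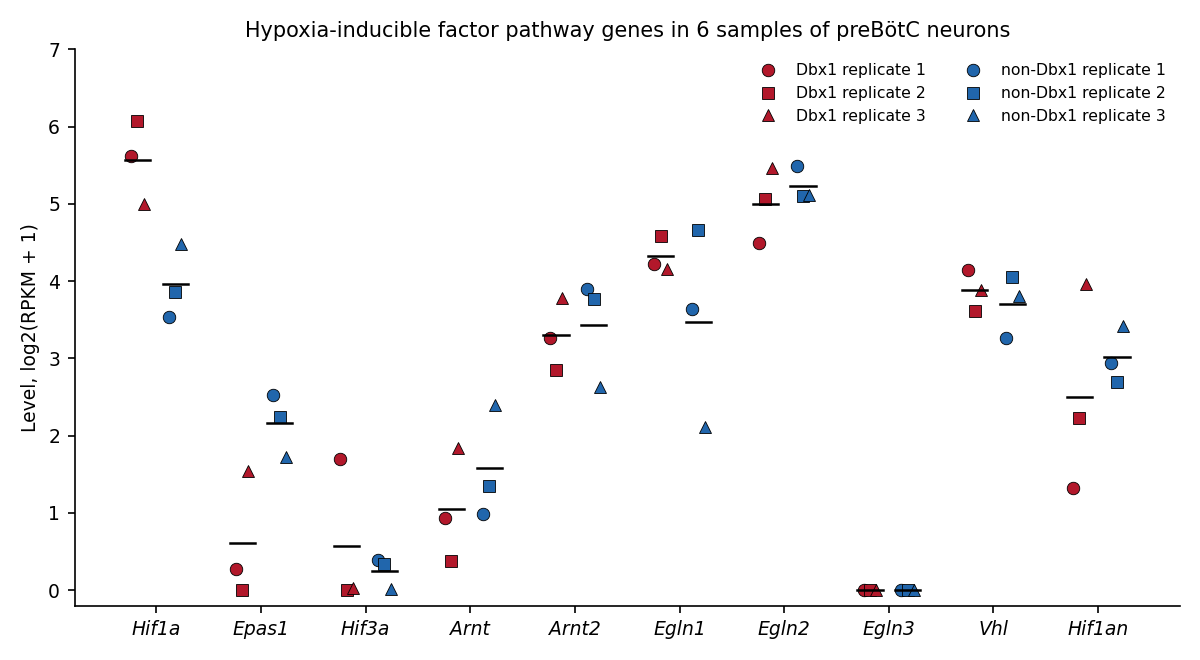
Level of each member as log2(RPKM + 1), with red symbols for the 3 Dbx1 and blue symbols for the 3 non-Dbx1 samples, symbol shape for the replicate and black lines for group means. The red and blue symbols of Hif1a and of Epas1 do not overlap, in opposite directions, and Egln3 sits at 0 in all 6 samples.

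Hif1a encodes HIF-1α, the broadly expressed oxygen-labile subunit, and lies at chr12:73901375-73947530 on the plus strand of GRCm38 (ENSMUSG00000021109). Its RPKM was 48.2, 66.0 and 31.0 in Dbx1 replicates 1, 2 and 3. The non-Dbx1 replicates had 10.6, 13.5 and 21.3 in the same order. The lowest Dbx1 sample was thus above the highest non-Dbx1 sample, and the group means differed by a factor of 3.20. The L2FC was 1.60 with a 95% interval from 0.77 to 2.44 (limma FDR = 0.708). The exact two-sided permutation test gave p = 0.1, the smallest that 3 samples against 3 allow. These levels rested on 490 to 3551 reads per sample. Leaving out each library in turn kept the L2FC between 1.35 and 1.88. Exons of Hif1a share 478 bases, 8.11% of their length, with Gm15283 and Gm49321, and the counting did not use strand. Gm15283, on the opposite strand, was listed at 3.21 RPKM or less in all 6 samples.

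Epas1 encodes HIF-2α, a subunit known from endothelium and glomus cells, at chr17:86753700-86833410 on the plus strand (ENSMUSG00000024140). Its RPKM was 0.213, 0 and 1.92 in the Dbx1 replicates and 4.75, 3.72 and 2.30 in the non-Dbx1 replicates. Every non-Dbx1 sample was above every Dbx1 sample, although Dbx1 replicate 3 came close to non-Dbx1 replicate 3. The L2FC was −1.55 with a 95% interval from −2.94 to −0.16 (limma FDR = 0.912). The values rested on 9, 0 and 71 reads in the Dbx1 samples and on 163, 169 and 115 in the non-Dbx1 samples. At this depth 3 reads in Dbx1 replicate 2, where Epas1 was listed at 0, correspond to 0.0750 RPKM.

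The Epas1 difference depended on single libraries for its p but not for its direction. The limma p was no longer under 0.05 without Dbx1 replicate 1, Dbx1 replicate 2, non-Dbx1 replicate 1 or non-Dbx1 replicate 2. The L2FC over all 6 such fits lay between −2.02 and −1.25. Endothelial markers were high in non-Dbx1 replicate 2, where Cldn5, the tight junction protein of brain endothelium, reached 63.7 RPKM. Of the 8 endothelial markers tested, 6 were lower and 2 were higher in Dbx1 samples. Their sum was 2.77 to 4.02 in the Dbx1 samples, whereas non-Dbx1 replicates 1, 2 and 3 had sums of 6.47, 115 and 1.81. Non-Dbx1 replicate 3 had the lowest endothelial sum of all 6, with Cldn5 listed at 0, and an Epas1 RPKM of 2.30. Without non-Dbx1 replicate 2 the L2FC of Epas1 was −1.51, with a limma p no longer under 0.05. Of the 5 erythroid markers, the 4 globins were also lower in every Dbx1 than in every non-Dbx1 sample, beside 5.24% of all tested genes. The erythroid sum of the non-Dbx1 samples was 733 to 14058. Of the 8 oligodendrocyte markers, 7 were lower in Dbx1 samples as well, with a median L2FC of −1.26. The part of the endothelial, the oligodendrocyte and the erythroid markers in the Epas1 difference was not tested.

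**Figure D2:**
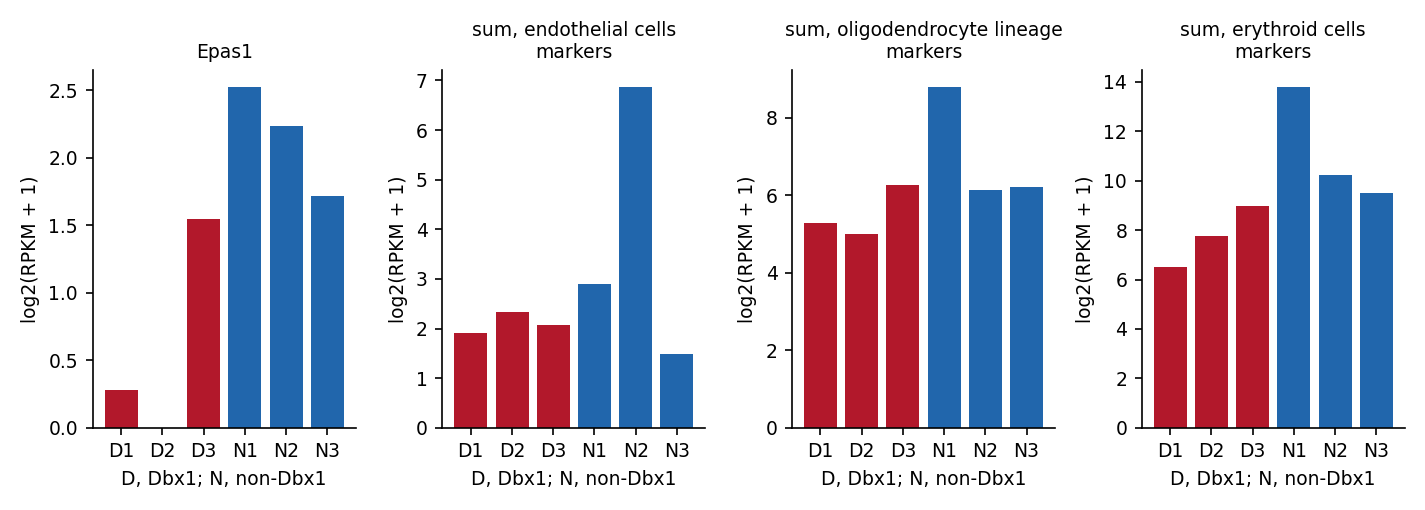
Bars show log2(RPKM + 1) of Epas1 and of the summed RPKM of endothelial, oligodendrocyte lineage and erythroid markers in each sample, red for Dbx1 (D1 to D3) and blue for non-Dbx1 (N1 to N3). The endothelial sum is highest in N2 and next highest in N1, the erythroid sum is higher in every non-Dbx1 than in every Dbx1 sample, and the Epas1 bars of the non-Dbx1 samples are all above those of the Dbx1 samples.

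Hif3a encodes the third alpha subunit, some forms of which restrain the others, and lies at chr7:17031507-17062427 on the minus strand (ENSMUSG00000004328). Its RPKM was 2.23, 0 and 0.0195 in the Dbx1 replicates and 0.314, 0.269 and 0.0144 in the non-Dbx1 replicates. Dbx1 replicate 1 supplied 131 reads, while the other 5 samples supplied 17 reads or fewer each. The L2FC was 0.32 with an interval from −0.70 to 1.35, and without Dbx1 replicate 1 it was −0.24.

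Hif1a made up most of the alpha subunit transcripts in every sample, and its share was larger in the Dbx1 samples. The share of Hif1a in the summed RPKM of Hif1a, Epas1 and Hif3a was 95.2%, 100% and 94.1% in the Dbx1 replicates. It was 67.7%, 77.2% and 90.2% in the non-Dbx1 replicates. The groups did not overlap, and the means differed by 18.0 percentage points (exact permutation p = 0.1, the smallest possible). Leaving out 1 library at a time gave 12.7 to 24.0 points. The summed RPKM of the 3 alpha subunits was 33.0 to 66.0 in the Dbx1 samples and 15.7 to 23.6 in the non-Dbx1 samples.

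Arnt encodes the general beta partner of the alpha subunits, and Arnt2 encodes its relative known for high expression in neurons. Arnt lies at chr3:95434388-95497240 on the plus strand (ENSMUSG00000015522) and Arnt2 at chr7:84246278-84410176 on the minus strand (ENSMUSG00000015709). The RPKM of Arnt was 0.905, 0.296 and 2.59 in the Dbx1 replicates and 0.975, 1.54 and 4.27 in the non-Dbx1 replicates. Arnt was low in all 6 samples and highest in replicate 3 of either group. The RPKM of Arnt2 was 8.61, 6.22 and 12.7 in the Dbx1 replicates and 13.9, 12.6 and 5.21 in the non-Dbx1 replicates. For either gene the ranges of the 2 groups overlapped, with an L2FC of −0.53 for Arnt (interval −1.97 to 0.92) and −0.14 for Arnt2 (interval −1.18 to 0.91).

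Arnt2 was the larger beta transcript in all 6 samples. It made up 90.5%, 95.5% and 83.1% of the summed beta RPKM in the Dbx1 replicates and 93.4%, 89.1% and 54.9% in the non-Dbx1 replicates. Non-Dbx1 replicate 3 stood apart from the other 5, with Arnt and Arnt2 at close to equal levels. The difference of 10.5 percentage points between the groups was within their spread (exact permutation p = 0.6), and without that library it was −1.62 points. Hif1a exceeded the summed beta RPKM 5.07-, 10.1- and 2.03-fold in the Dbx1 replicates. In the non-Dbx1 replicates the same ratio was 0.714, 0.954 and 2.25, so the groups overlapped through the replicates numbered 3 (exact permutation p = 0.2). All these ratios rest on the authors' exon lengths. Those were 1.96 times the merged exons of the annotation used here for Arnt and Arnt2 and 1.21 times for Hif1a. Merged lengths would lower the ratio in every sample.

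**Figure D3:**
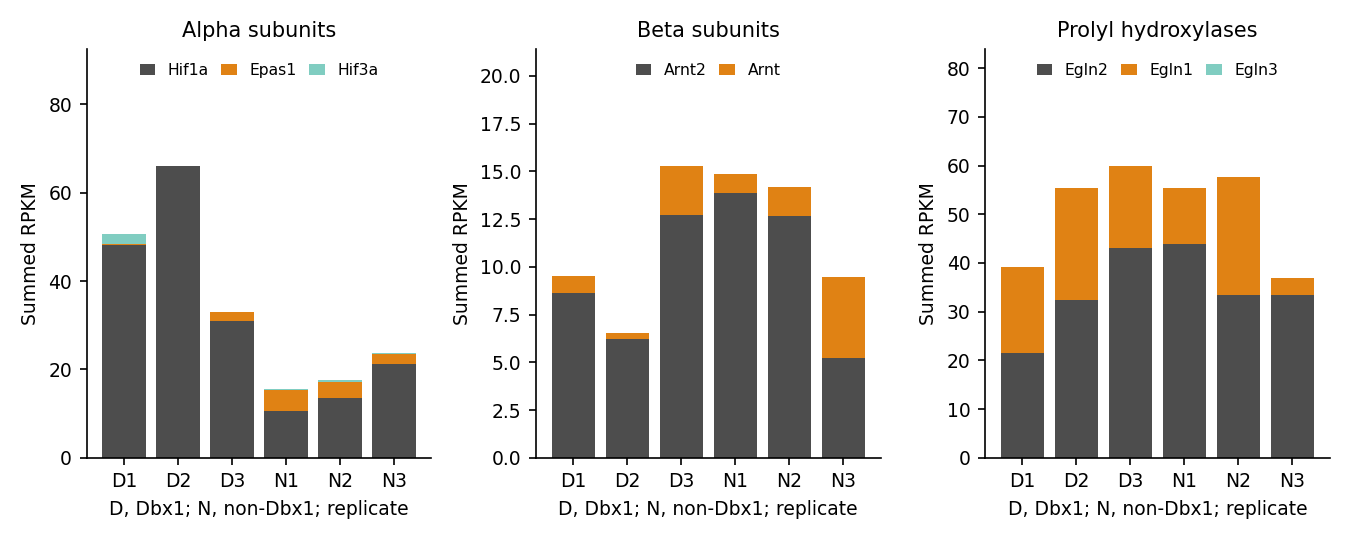
Stacked bars show summed RPKM of the alpha subunits, the beta subunits and the prolyl hydroxylases in each Dbx1 (D1 to D3) and non-Dbx1 (N1 to N3) sample. The alpha sum is 33.0 or more in the Dbx1 samples and 23.6 or less in the non-Dbx1 samples, while the bars of the other panels overlap between groups.

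The prolyl hydroxylases are the oxygen sensors proper, since they use molecular oxygen as a substrate. Egln1 encodes PHD2, usually the main hydroxylase of HIF-1α, at chr8:124908587-124949324 on the minus strand (ENSMUSG00000031987). Its RPKM was 17.7, 23.0 and 16.8 in the Dbx1 replicates and 11.4, 24.4 and 3.33 in the non-Dbx1 replicates. The Dbx1 samples lay close together and inside the range of the non-Dbx1 samples. The L2FC was 0.85 with an interval from −0.49 to 2.18 (limma FDR = 0.936). It ranged from 0.17 without non-Dbx1 replicate 3 to 1.45 without non-Dbx1 replicate 2, and only in the latter of these fits was the limma p under 0.05.

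Egln2 encodes PHD1, at chr7:27158658-27166802 on the minus strand (ENSMUSG00000058709). Its RPKM was 21.5, 32.3 and 43.1 in the Dbx1 replicates and 44.0, 33.4 and 33.5 in the non-Dbx1 replicates. Egln2 was high in all 6 samples, with the highest no more than 2.05 times the lowest, and the L2FC was −0.23 (interval −0.92 to 0.46). Its mean ranked 1499 of the 17614 tested genes, beside 1660 for Hif1a. Egln3 encodes PHD3, a hydroxylase that is itself known as a HIF target, at chr12:54178981-54203860 on the minus strand (ENSMUSG00000035105). It was listed at 0 in all 6 samples and was not tested. With its annotated exon length of 2662 bases, 3 reads would have given 0.119 to 0.174 RPKM depending on the library.

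The summed RPKM of the 3 hydroxylases was 39.1, 55.3 and 59.9 in the Dbx1 replicates and 55.4, 57.7 and 36.8 in the non-Dbx1 replicates. The means of 51.5 ± 10.9 and 49.99 ± 11.5 (SD, n = 3) differed by less than the spread between samples (exact permutation p = 0.8). The share of Egln1 in that sum was 45.2%, 41.6% and 28.0% against 20.6%, 42.2% and 9.05%, which overlapped as well (exact permutation p = 0.3). The ratio of alpha to hydroxylase transcripts differed more than the hydroxylases themselves. On the log2 scale it was 0.37, 0.26 and −0.86 in the Dbx1 replicates and −1.82, −1.72 and −0.64 in the non-Dbx1 replicates. Dbx1 replicate 3 fell below non-Dbx1 replicate 3, so that the groups overlapped, and the mean difference of 1.32 had an exact permutation p of 0.2. With Egln1 alone as the denominator the difference was 0.40.

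Vhl encodes the receptor of the ubiquitin ligase that captures hydroxylated alpha subunits, at chr6:113623959-113631633 on the plus strand (ENSMUSG00000033933). Its RPKM was 16.8, 11.2 and 13.8 in the Dbx1 replicates and 8.62, 15.6 and 13.0 in the non-Dbx1 replicates. Its range was the narrowest of the members detected, with a factor of 1.94 between the lowest and the highest sample, and its L2FC was 0.17 (interval −0.60 to 0.94). Hif1an encodes FIH, the asparaginyl hydroxylase, at chr19:44562850-44576274 on the plus strand (ENSMUSG00000036450). Its RPKM was 1.50, 3.67 and 14.6 in the Dbx1 replicates and 6.66, 5.49 and 9.67 in the non-Dbx1 replicates. The Dbx1 samples spanned the whole range of the non-Dbx1 samples and more, by a factor of 9.73 between the lowest and the highest, and the L2FC was −0.52 (interval −2.06 to 1.02).

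**Figure D4:**
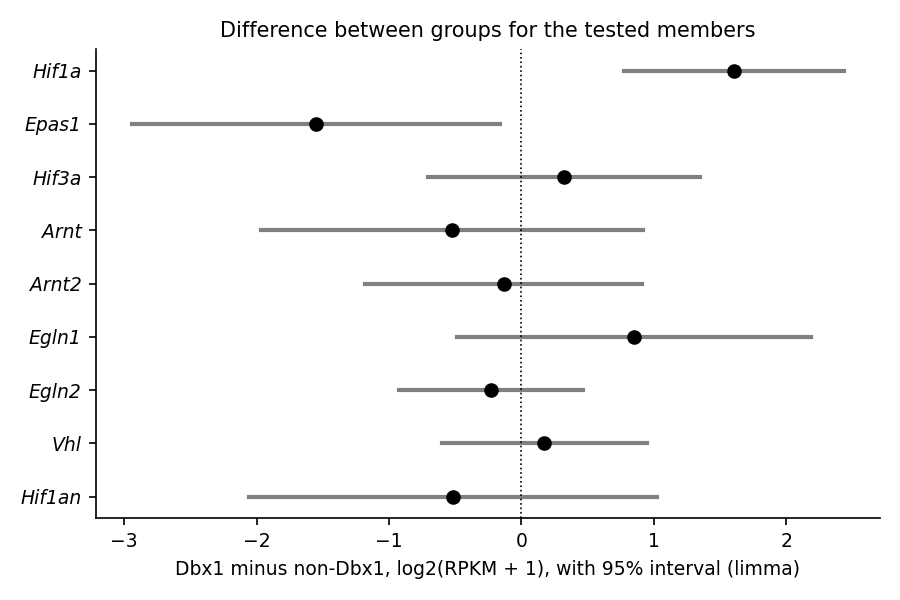
Points show the L2FC of each of the 9 tested members, Dbx1 minus non-Dbx1 on the log2(RPKM + 1) scale, and grey lines its 95% interval from limma. The intervals of Hif1a and Epas1 lie on opposite sides of 0 and the other 7 include 0.

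Ordered by mean RPKM over the 6 samples, Egln2 with 34.6 ± 8.26 (SD, n = 6) came first, followed by Hif1a with 31.8 ± 21.6 and Egln1 with 16.1 ± 7.79. Vhl with 13.2 ± 2.95, Arnt2 with 9.88 ± 3.70 and Hif1an with 6.92 ± 4.65 formed the middle of the order. Epas1 with 2.15 ± 1.88, Arnt with 1.76 ± 1.45, Hif3a with 0.475 ± 0.872 and Egln3 closed it. Among these 9 pairs of neighbours, the within-sample log2 difference exceeded its own SD for Hif1an over Epas1 alone, at 1.37 ± 0.87 and in 6 of 6 samples. The order of the groups differed at its head: Hif1a had the highest mean in the Dbx1 samples, 48.4 beside 32.3 for Egln2, and Egln2 had the highest in the non-Dbx1 samples, 37.0 beside 15.1 for Hif1a. The order also turned on exon length. The authors' lengths for Arnt and Arnt2, 15707 and 15089 bases, were 1.96 times the merged exons of the annotation used here. With merged exons Arnt2 moved from the fifth place to the third, at 19.4 RPKM, and Arnt with 3.46 passed Epas1 with 2.04. The only step beyond its SD was then Hif1an over Arnt, at 0.92 ± 0.72 and in 5 of 6 samples.

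The genes whose profile over the 6 samples lay nearest to that of Hif1a were sought among 4424 genes with a mean RPKM of at least 10. The measure was the root mean square difference of centred log2(RPKM + 1) values, whose median over these genes was 0.975. The nearest was Cd83, an immunoglobulin-family surface protein, at 0.195. Its RPKM was 66.2, 82.7 and 38.0 in the Dbx1 replicates and 18.3, 23.8 and 34.3 in the non-Dbx1 replicates, the same order of samples as Hif1a. Gabra5, a GABA-A receptor subunit, followed at 0.317. Ebp, an enzyme of cholesterol synthesis, had 0.321, Nudt11 had 0.327 and Jagn1 had 0.336. The 5 genes were picked for this likeness, which is a description of 6 libraries.

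The other components of the VHL ubiquitin ligase were present throughout. All 6 of its partner genes had values above 0 in all 6 samples, and none had a limma p under 0.05. Nedd8, the modifier that activates the cullin, had a mean of 243 RPKM, Tceb2 (elongin B) 226 and Rbx1, the RING subunit, 188. The median L2FC of the 6 was −0.01. Ube2m, an enzyme that loads NEDD8, was the single partner without overlap, lower in Dbx1 samples, beside 5.24% of all tested genes. It is named for that reason after its values were seen, with an L2FC of −0.35 (limma FDR = 0.936). The 18 HIF cofactors and stability regulators were likewise all detected in every sample, with none at a limma p under 0.05 and a median L2FC of −0.01. Among them the chaperone Hsp90ab1 had a mean of 292 RPKM, the ubiquitin ligase Stub1 103 and P4hb 55.1. The coactivators Ep300 and Crebbp had means of 2.44 and 7.54 RPKM.

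Of 14 other bHLH-PAS factors, the structural family to which alpha and beta subunits belong, 10 were tested and none had a limma p under 0.05. The steroid receptor coactivator Ncoa1 was highest with a mean of 8.30 RPKM, followed by Npas3 with 5.55 and Arntl, the clock factor BMAL1, with 3.39. All 3 were below the mean of Arnt2. Clock was the single gene of this list without overlap, at 1.28 to 1.95 RPKM in the Dbx1 samples and 2.21 to 3.17 in the non-Dbx1 samples. Groups without overlap and with Dbx1 lower were found for 5.24% of all tested genes, and Clock is named after its values were seen. Another 18 dioxygenases that depend on oxygen, histone, DNA and RNA demethylases and a thiol dioxygenase among them, were detected in all 6 samples. None had a limma p under 0.05, and their median L2FC was 0.08. Fto, an RNA demethylase, had a mean of 14.5 RPKM, P4htm 10.9 and Ado, a cysteamine dioxygenase, 10.7, all below Egln1 and Egln2.

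HIF target genes had differences of either sign. Of 35 targets outside glycolysis, 30 were tested, 10 with higher and 20 with lower means in Dbx1 samples, and their median L2FC was −0.24. None had a limma p under 0.05 in the direction of Hif1a, beside 2.73% of all genes. In the direction of Epas1 there was 1, beside 2.48% of all genes, namely Angptl4, a secreted inhibitor of lipoprotein lipase. That count was 3 without Dbx1 replicate 2 or non-Dbx1 replicate 1, and 2 without Dbx1 replicate 3 or non-Dbx1 replicate 3. Over all tested genes the same count was 296, 516, 372 and 532 in these fits, beside 436 with all samples. Angptl4 had an RPKM of 0.705, 0.116 and 0 in the Dbx1 replicates and of 5.83, 2.79 and 6.19 in the non-Dbx1 replicates. The 2 groups were far apart, with an L2FC of −2.20 (limma FDR = 0.724). The most abundant targets were Fam162a, a mitochondrial protein, with a mean of 85.1 RPKM, Higd1a, a partner of cytochrome oxidase, with 29.1, and the histone demethylase Kdm4b with 11.8.

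Without overlap, 3 of the 30 tested targets outside glycolysis were lower in the Dbx1 samples, Angptl4, Bhlhe41 and Higd1a, beside 5.24% of all genes, and 1, Car12, was higher, beside 5.35%. Bhlhe41 and Car12 are named after their values were seen. Higd1a ranged from 22.8 to 26.3 RPKM in the Dbx1 samples and from 29.0 to 37.7 in the non-Dbx1 samples, with an L2FC of −0.38 (limma FDR = 0.936). Bhlhe41, a clock-related repressor, had an L2FC of −1.14, and Car12 stayed at 0.229 RPKM or less in all samples. Vegfa, the angiogenic factor, ranged from 2.12 to 5.38 RPKM with overlapping groups. Epo and Adm, the genes of erythropoietin and adrenomedullin, were listed at 0 in all 6 samples.

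The 20 targets of glucose use included abundant transcripts. Aldoc had a mean of 223 RPKM, Aldoa 188 and Tpi1 184, and none of the 20 had a limma p under 0.05. Their L2FC was above 0 for 12 and below 0 for 8, with a median of 0.03. Without non-Dbx1 replicate 1 or non-Dbx1 replicate 3, 1 of them had a limma p under 0.05 with higher values in Dbx1 samples. In these fits 425 and 514 of all tested genes did so. Slc2a3, the neuronal glucose transporter, was the single member of this list whose groups did not overlap, beside 5.35% of all tested genes with Dbx1 higher. It is named for that reason after its values were seen. Its RPKM was 14.1, 23.5 and 14.9 in the Dbx1 replicates and 12.5, 5.48 and 10.4 in the non-Dbx1 replicates, with an L2FC of 0.85 (limma FDR = 0.912). Gapdh, a gene with many near-identical copies in the genome, had only 0.754 to 2.22 RPKM, and its level is uncertain.

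The oxygen-sensing genes known from glomus cells were split. Olfr78 and Higd1c, 2 genes characteristic of these cells, were listed at 0 in all 6 samples. Ndufa4l2 and Cox4i2, mitochondrial subunits under HIF-2α control there, did not exceed 1.10 RPKM in any sample. The general mitochondrial genes of the list were high, with means of 349 RPKM for Sdhd and 133 for Ndufs4. Of 13 genes tested, none had a limma p under 0.05 with higher values in Dbx1 samples and 1 had it with lower values, beside 2.48% of all genes. That count was 0 without Dbx1 replicate 1 and without Dbx1 replicate 3. The gene, Cbs, makes hydrogen sulfide, and its RPKM was 0.942, 2.46 and 0.725 in the Dbx1 replicates and 3.58, 4.89 and 6.44 in the non-Dbx1 replicates. Its groups did not overlap, beside 5.24% of all tested genes with Dbx1 lower, and its L2FC was −1.37 (limma FDR = 0.912).

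**Figure D5:**
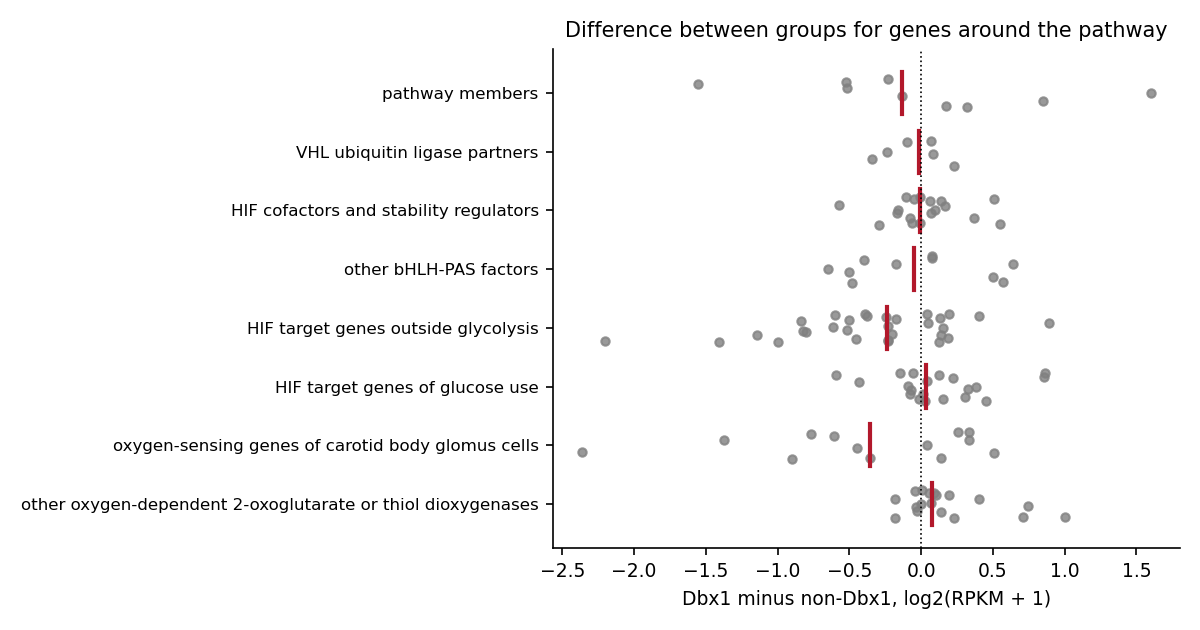
Grey points show the L2FC of each tested gene in the lists around the HIF pathway and red bars the list medians, with Dbx1 minus non-Dbx1 on the log2(RPKM + 1) scale. The medians lie between −0.36 and 0.08, and Hif1a at 1.60 is the highest point among the lists.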

How the data were processed

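RNA-seq was measured in 6 samples of 15 neurons, 3 Dbx1 and 3 non-Dbx1, grouped by the labelled cell type. The authors made full-length complementary DNA, aligned reads to mm10 with TopHat2, counted them on gene names with HTSeq without strand, and deposited RPKM from exon lengths of an Ensembl annotation whose release is not given in the sources used here. The authors tested counts with DESeq2 at an FDR threshold of 0.1, and by that test they reported Hif1a as higher in Dbx1 neurons. The limma fit here gave Hif1a an L2FC of 1.60 in the same direction but did not call it (limma FDR = 0.708). It used RPKM in place of counts as well as another test, and what made the calls differ was not tested. The deposited files hold RPKM for 49568 names, so limma version 3.58.1 (R 4.3.3; lmFit, eBayes with a trend) was fitted to log2(RPKM + 1) over the 17614 genes detected (RPKM above 0) in 3 or more samples. P-values were two-sided, and an FDR by Benjamini and Hochberg under 0.1 counted as passed. The pseudocount of 1 understates changes of low genes. Standard errors and intervals are limma's moderated ones.

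Annotated exon lengths and the spacing of RPKM values gave the total reads on genes, within a tolerance of 0.002 of a whole read, and reads per gene followed. Floors of 3 reads cover counting error only, since amplified reads are not independent molecules. Composition and ratios were compared by exact two-sided permutation tests, whose smallest p is 0.1. The p-values measure the spread between samples from different mice. On simulated data for this comparison, over 17386 genes, limma recovered 35 of 100 genes changed by 2 and 82 of 100 changed by 4 on the log2 scale, drawn from genes with at least 100 reads.

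The members and all gene and marker lists were chosen with earlier results of these data known. All 10 members are named. From each other list the 3 highest means and up to 3 genes with the lowest limma p under 0.05 are named. A gene that this rule names is not reported here. Coordinates are from GENCODE vM21 (GRCm38, the same assembly as mm10) by gene name, and promoters from RefSeq (GRCm38.p6). Transcripts of other genes sharing at least 50 bases at 95% identity were sought with blastn 2.17.0. There were 2 such genes for Hif1a, 174 for Epas1, 6 for Arnt, 164 for Arnt2 and none for the other members, with longest stretches of 196, 81, 62 and 221 bases, so reads from these stretches are of uncertain origin. Other tools were scipy 1.17.1, pandas 2.3.3, matplotlib 3.10.9 and numpy 2.4.6, run under Python 3.11.15. Alternatives were a pseudocount of 0.1, 2 other filters, size factors, quantile normalization, no trend, a replicate block, voom on recovered reads, each library left out and, chosen after seeing the data, merged exon lengths.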

Additional observations from a re-analysis of the deposited data

How the results depend on the processing

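Hif1a kept its direction and a limma p under 0.05 in all 14 alternatives with a test, and its FDR stayed above 0.1 in each, the lowest being 0.422. Epas1 kept its direction in all 14 and a p under 0.05 in 8, with an L2FC of −4.28 with voom on recovered reads. No member reached an FDR under 0.1 in any alternative.

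The number of genes with FDR under 0.1 in limma was 0 higher and 1 lower in Dbx1 samples. The lower count was 0 with a pseudocount of 0.1, with no filter on low values, with the replicate block and with voom on recovered reads, and 3 without the trend. Leaving out 1 library gave 0 to 1 in each direction, with the 1 higher gene when non-Dbx1 replicate 2 was left out. The cause was not tested.

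The direction of Hif3a turned with voom on recovered reads (−0.42). Leaving out single libraries gave L2FC ranges of −0.24 to 0.61 for Hif3a, −0.54 to 0.10 for Arnt2, −0.46 to 0.027 for Egln2, −0.048 to 0.35 for Vhl and −1.25 to 0.074 for Hif1an. The libraries that turned a direction were Dbx1 replicate 1 for Hif3a, Egln2 and Hif1an, non-Dbx1 replicate 1 for Vhl, and Dbx1 replicate 2 and non-Dbx1 replicates 1 and 2 for Arnt2. The difference in the Arnt2 share ranged from −1.62 to 17.6 percentage points, and the difference in summed Egln RPKM from −5.11 to 7.63, turning without Dbx1 replicate 2, Dbx1 replicate 3 or non-Dbx1 replicate 3. The Hif1a share and the alpha to Egln ratio kept their direction in all alternatives run.

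Deviations of same-numbered samples from their group means correlated at −0.107, 0.0248 and −0.0522, so no pairing by replicate number was seen. With 3 samples in a group, such correlations cannot exclude a shared batch. With the replicate block the L2FC was 1.60 for Hif1a and −1.55 for Epas1 as before, and the limma p stayed under 0.05 for Hif1a but not for Epas1, and the number of glomus cell genes with a p under 0.05 and lower values in Dbx1 samples went from 1 to 0. With quantile normalization the number of such targets outside glycolysis went from 1 to 2, and over all tested genes from 436 to 471. The number of glucose use targets with a limma p under 0.05 and higher values in Dbx1 samples went from 0 to 1 with quantile normalization and with voom. For the other dioxygenases this number went from 0 to 1 with voom. Over all genes fitted it was 486 with quantile normalization and 406 with voom, beside 480 in the main fit. Levels near or under the floor of 3 reads, at most 0.0874 RPKM for Epas1 and 0.174 for Egln3, could not be told from 0 at this depth.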

Other observations

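Th, which encodes the rate-limiting enzyme of catecholamine synthesis and is a marker of glomus cells, was listed at 114 RPKM in non-Dbx1 replicate 2 and at 3.86 or less in the other 5 samples. Cyp2t4, whose exons share 11 bases with those of Egln2 on the opposite strand, was listed at 3.12 RPKM in non-Dbx1 replicate 2 and at 0 in the other 5. Car9, a carbonic anhydrase and HIF target, was listed at 0 in all 3 Dbx1 samples and at 1.14, 0.279 and 0 RPKM in the non-Dbx1 replicates, and was above 0 in too few samples to be tested.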
